A study of Mus musculus with 48 samples.

Results

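The 9 long noncoding RNAs described here, all followed through a block of transcription, are Malat1, Neat1, Meg3, Rian, Mirg, H19, Kcnq1ot1, Miat and Tug1. They were chosen by name, with no measured value in the rule, and they are 9 of the 23862 genes listed in any library. The cells were E14TG2a, a line of mouse embryonic stem cells (mESCs). Every one of the 48 libraries came from cells treated with 1 µM flavopiridol, which blocks CDK9, the P-TEFb kinase that releases RNA polymerase II into elongation. Treatment lasted 30, 60, 120 or 240 min, and total RNA, nucleus, cytosol and membrane were each sequenced from 3 independently passaged replicates at each time. Each value is a ratio to the untreated 0 min level of the same fraction, so 1 means no change. The 0 min libraries were not analysed here, and whether each replicate had its own 0 min level is not stated. If that level was shared, an error in it would shift all replicates of a fraction together against 1. The ratio carries no read count, so the depth behind it is unknown and no counting interval is given.

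Long noncoding RNAs are transcribed by RNA polymerase II, and several of them stay in the nucleus. Malat1 sits in nuclear speckles, bodies rich in splicing factors, and Neat1 is the scaffold of paraspeckles. Meg3, Rian and Mirg lie in the imprinted Dlk1-Dio3 domain and are transcribed from the maternal chromosome; Rian and Mirg host small nucleolar RNAs and microRNAs. H19 is the maternally expressed neighbour of Igf2 and the host of a microRNA, and Kcnq1ot1 is the paternally expressed RNA that silences genes of the Kcnq1 domain. Miat is a nuclear RNA first described in heart and nervous tissue, and Tug1 is found in both nucleus and cytoplasm. When new transcription is blocked, loss of an RNA lowers its ratio in total RNA, and the ratio in a fraction also depends on movement in and out of it. The ratios are of poly(A) RNA and scaled on long-lived genes, so neither measures loss alone. Mean total ratios reached 2.11 for Neat1 at 120 min and 2.80 for Miat at 240 min.

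The libraries were made from poly(A) RNA, so the 3′ ends of these RNAs bear on what was captured. Malat1 and the long form of Neat1 are known to end in an A-rich tract written in the genome, released by RNase P cleavage, whereas the short form of Neat1 is polyadenylated like an mRNA. The stretches below, from the GENCODE M21 transcripts on GRCm38, show both kinds of end on the strand of the RNA. Capitals mark the longest run of A in Malat1-201 and runs of at least 4 A in Neat1-201, and the hexamers AATAAA or ATTAAA, the usual polyadenylation signals, in the other transcripts.
Malat1-201, chr19:5795976-5796035, minus strand: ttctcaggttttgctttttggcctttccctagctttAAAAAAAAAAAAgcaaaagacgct
Neat1-201, chr19:5824708-5824767, minus strand: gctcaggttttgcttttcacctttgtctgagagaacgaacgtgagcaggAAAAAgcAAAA
Neat1-202, chr19:5842307-5842366, minus strand: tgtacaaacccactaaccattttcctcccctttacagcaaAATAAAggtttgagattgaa
Kcnq1ot1, chr7:143203458-143203517, minus strand: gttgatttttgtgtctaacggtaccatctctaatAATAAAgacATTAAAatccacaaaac
Tug1, chr11:3639785-3639844, minus strand: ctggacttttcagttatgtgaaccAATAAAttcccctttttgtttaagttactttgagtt
The Malat1 and Neat1-201 stretches share 16 bases, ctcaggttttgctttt. The Malat1 stretch is followed by 286 more annotated bases, which end in a region with an AATAAA, and Neat1-201 (20771 bases) stops at its A-rich end while Neat1-202 (3004 bases) stops after its AATAAA. The longest annotated transcript of 8 of the 9 genes had one of these hexamers in its last 50 bases, all but Neat1, against 44.82% of the longest transcripts of the 46561 genes with one of at least 300 bases. Over all annotated transcripts of that length the share was 30 of 70 for the members and 36.04% for all genes. Runs of A longer than that of Malat1 lie inside the longest transcripts of other members. They have 41 bases in Kcnq1ot1 (23487 bases from its 3′ end), 16 in Meg3 and 15 in Rian. Whether such runs bear on capture was not tested. The values are per gene, so they do not separate the short from the long form of Neat1 or one Malat1 end from another.

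On GRCm38, Malat1 (chr19:5795690-5802672, a single exon) and Neat1 (chr19:5824708-5845478, a single exon in its longest transcript) lie next to each other on the minus strand. Meg3 (chr12:109541001-109571726), Rian (chr12:109603940-109661716) and Mirg (chr12:109729764-109749460) follow each other on the plus strand. RefSeq places 14 microRNA hairpins inside Mirg, 3 inside Rian, 1 inside Meg3 and 1 inside H19 (chr7:142575529-142578143, minus strand). Kcnq1ot1 (chr7:143203458-143296549, minus strand) is 1 unspliced exon of 93092 bases inside Kcnq1, which is on the other strand and was not listed in any library. Miat (chr5:112213228-112229395) and Tug1 (chr11:3639785-3649673) are also on the minus strand. Tug1 overlaps the start of the protein-coding Morc2a, and Malat1, Meg3 and Miat overlap Gm37376, Gm26906 and Gm26953, which are annotated on the other strand. The kit keeps strand, but the sources used here do not give the counting setting, so reads of such overlapping pairs may not be fully separated.

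Of the members, 7 were listed in all 48 libraries. Mirg was listed in 8 of 12 cytosolic and 5 of 12 membrane libraries, and H19 in 11 of 12 membrane libraries, the missing one being replicate 1 at 30 min. All 9 members were listed in every total and nuclear library. Of 12 pluripotency markers, 10 were listed in all 48 libraries, Zfp42 in 47 and Esrrb in 37, whereas 0 of 8 feeder or fibroblast markers and 2 of 12 differentiated lineage markers were listed in all 48. Some of these were still listed in many libraries: Col1a1 in 44, Thy1 in 43, Mixl1 in 44, Gata6 in 42 and Cdx2 in 27. In no library at all were 4 of the 8 feeder or fibroblast markers and 5 of the 12 lineage markers listed. The rule by which a gene is left out of a library is not given in the sources used here, so a gene that is not listed need not be an absent RNA. One nuclear library stood apart: replicate 1 at 30 min had a median ratio of 0.555 over its genes, against 0.934 and 0.805 in the other two. Values without it are given where it changed a call, and for the nuclear slopes of Malat1 and Neat1.

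After flavopiridol the 9 RNAs parted ways. Kcnq1ot1 and Tug1 fell in every fraction, and Malat1 fell in the nucleus while its total level stayed near its start. Outside the nucleus Neat1 climbed to 120 min and then dropped back. Meg3, Rian and Miat had higher mean ratios at 240 than at 30 min in cytosol and membrane, and so had Malat1 and Neat1. The change over time was tested as the slope of the log2 ratio in log2 per h, fitted with limma over the genes that all 12 libraries of that fraction listed, two-sided, with Benjamini-Hochberg adjustment and a threshold of 0.05. In total RNA 2 of 9 members fell (Kcnq1ot1 and Tug1) and 1 rose (Meg3), where 56.9% of the 12762 genes tested fell and 3.39% rose. The nucleus had 6 of 9 that fell and 0 that rose (0 also at an unadjusted limma p under 0.05), beside 61.9% and 3.32% of genes. Of the 8 members tested in the cytosol 2 fell and 2 rose, against 67.1% and 2.95% of genes, and of the 7 tested in membrane 2 fell and 3 rose, against 62.2% and 4.09%. In bulk RNA, fewer cells holding an RNA and less of that RNA per cell cannot be told apart.

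The directions are set by the authors' scaling on long-lived genes. On that scale the median slope of all genes was -0.22 log2 per h for total RNA, -0.30 for nuclear, -0.28 for cytosolic and -0.26 for membrane RNA. With the median gene of every library set to 0 instead, 2 of 9 members fell and 4 rose in total RNA, with 31% of genes falling and 28.8% rising. The members' counts fallen and risen then became 4 and 3 for nuclear RNA (29.2% and 29.6% of genes), 1 and 5 for cytosolic RNA (32.4% and 29.4%) and 2 and 3 for membrane RNA (30.9% and 28.3%).

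With the first and last times alone compared, 3 of 9 members were lower at 240 than at 30 min in total RNA (Kcnq1ot1, Mirg and Tug1) and 0 higher, where 58.8% of genes were lower and 3.47% higher. Nuclear RNA had 4 of 9 lower, those 3 and Malat1, and 0 higher, beside 63.1% and 3.14% of genes. At an unadjusted limma p under 0.05 the count of members higher was 0 in both. Cytosolic RNA had 2 of 8 lower (Kcnq1ot1 and Tug1) and 2 higher (Meg3 and Neat1), beside 66.8% and 3.17%. The membrane fraction had 2 of 7 lower, the same pair, and 3 higher (Meg3, Rian and Miat), beside 65.1% and 4.32%; the call of Meg3 there was lost whichever replicate was left out (adjusted p from 0.053 to 0.0907).

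**Figure D1:**
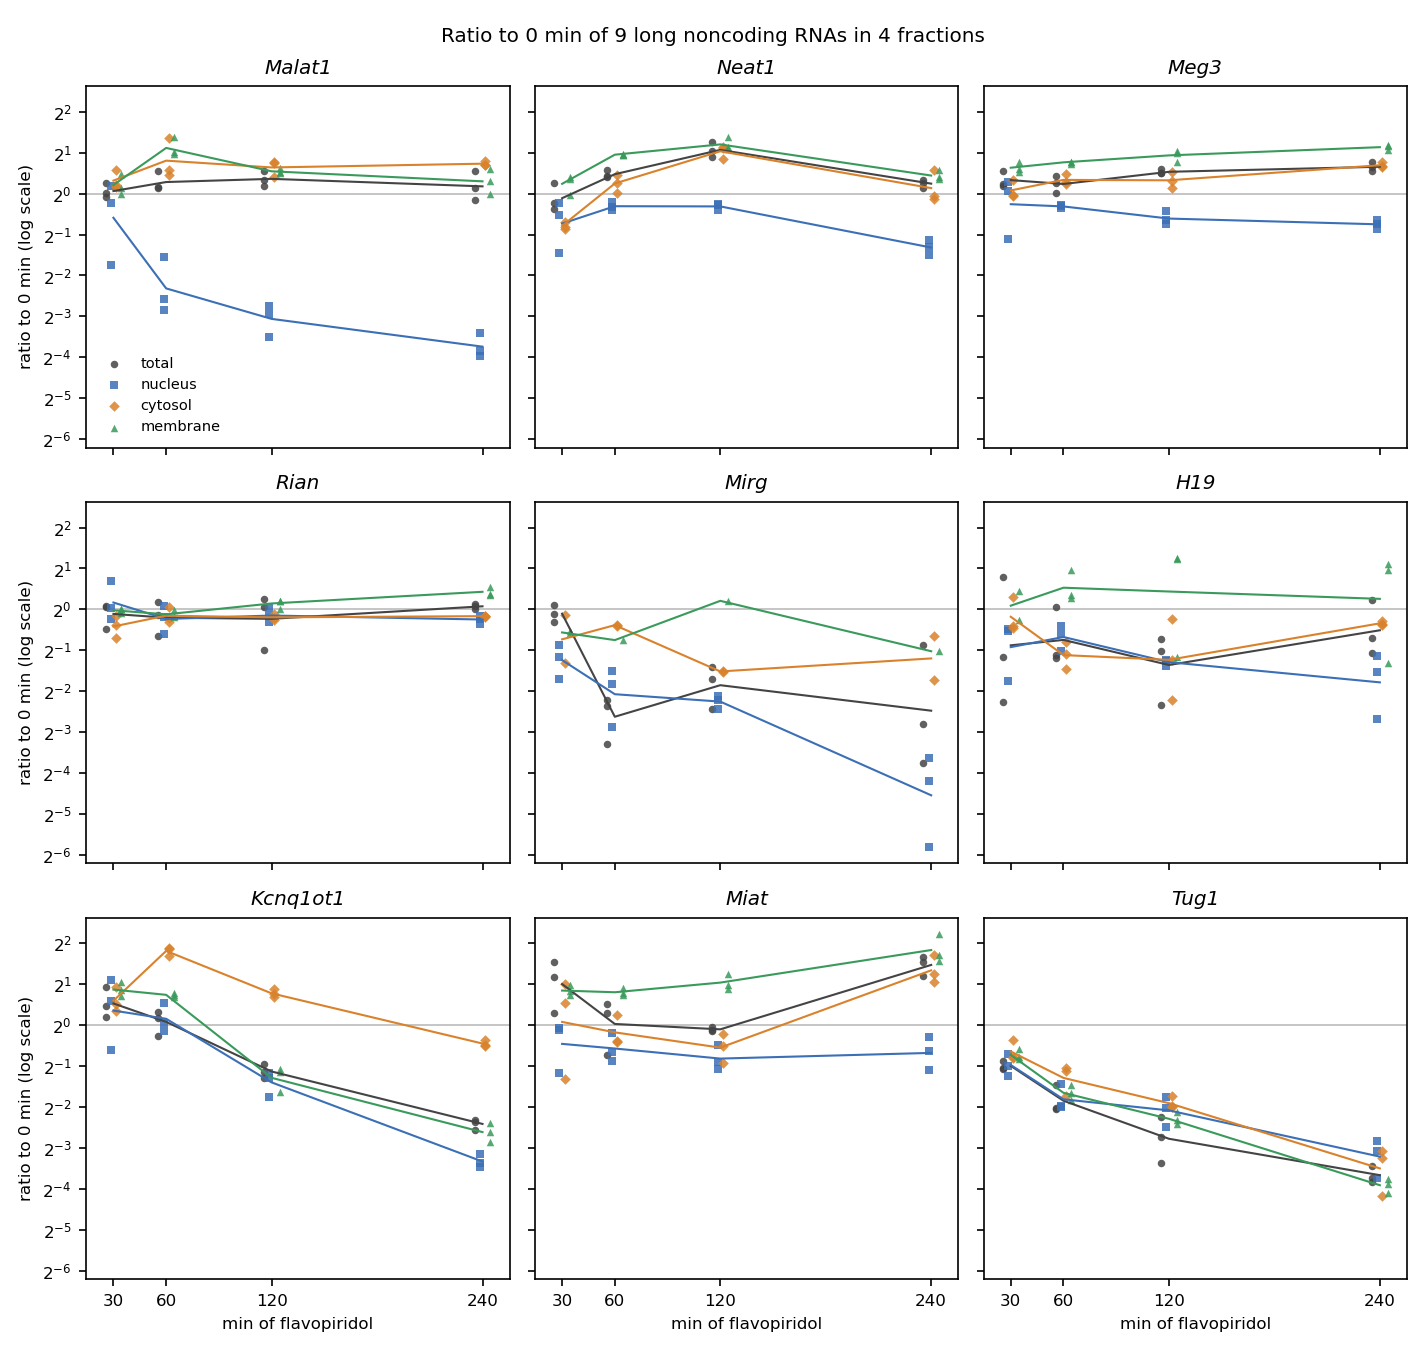
Ratio to 0 min (log scale) of each of the 9 RNAs against minutes of flavopiridol; points are single libraries, 3 per fraction and time where listed, shifted slightly sideways, and lines join their geometric means. Nuclear Malat1 runs down to 0.0642, 0.0691 and 0.0945 at 240 min while its total, cytosolic and membrane points stay between 0.902 and 2.59, and all 4 Tug1 lines fall together.

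Malat1 had the widest split between fractions. In the nucleus its ratios were 0.300, 1.14 and 0.854 at 30 min, 0.344, 0.140 and 0.168 at 60 min, 0.130, 0.149 and 0.0887 at 120 min, and 0.0642, 0.0691 and 0.0945 at 240 min. The 3 libraries at 240 min lay below all 3 at 30 min, and the low 30 min value belonged to the library that stood apart. In total RNA the ratios were 1.02, 1.20 and 0.937 at 30 min and 1.10, 0.902 and 1.46 at 240 min, which overlap.

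The nuclear slope of Malat1 was -0.76 ± 0.17 log2 per h (SE, n = 12 libraries, limma adjusted p = 0.00162), and -0.79 ± 0.19 without the low 30 min library (limma adjusted p = 0.00248). Between 30 and 240 min it fell by 3.15 ± 0.50 on the log2 scale (limma adjusted p = 0.000209), lower in 3 of 3 libraries than in all 3 at 30 min. Its slope in total RNA was 0.01 ± 0.05 (limma adjusted p = 0.866), and no change was detected there. In the nucleus the mean log2 ratio of Malat1 was -0.59, -2.32, -3.06 and -3.74 at 30, 60, 120 and 240 min. The nuclear slope thus averages an uneven fall. The nuclear step from 30 to 60 min, -1.73 ± 0.50 on the log2 scale, did not itself pass the test (limma adjusted p = 0.0799).

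Outside the nucleus Malat1 stayed above its start in nearly every library. Its cytosolic ratios were 1.15, 1.50 and 1.12 at 30 min, 1.38, 1.50 and 2.58 at 60 min, 1.67, 1.71 and 1.32 at 120 min and 1.62, 1.62 and 1.74 at 240 min. The membrane ratios were 1.40, 1.10 and 0.999 at 30 min, 1.94, 2.02 and 2.59 at 60 min, 1.44, 1.41 and 1.53 at 120 min and 1.24, 0.999 and 1.51 at 240 min. Neither slope passed the test: 0.07 ± 0.07 log2 per h in the cytosol (limma adjusted p = 0.384) and -0.08 ± 0.09 in the membrane fraction (limma adjusted p = 0.444). The membrane ratio at 60 min exceeded that at 30 min by 0.91 ± 0.19 on the log2 scale (limma adjusted p = 0.0216), a comparison chosen after the values were seen, where 0.427% of genes were higher, and the call was lost with each of the 3 replicates left out in turn (adjusted p from 0.11 to 0.243). Taking the group means, the cytosolic ratio of Malat1 was 1.64 times the nuclear one at 30 min, 8.37 times at 60 min, 12.8 times at 120 min and 21.9 times at 240 min. From 60 min on, every nuclear value lay below every cytosolic and every membrane value. The median ratios over the genes of each library were ordered in the same way at these times. At 240 min these medians were 0.313 to 0.356 in the nucleus, 0.476 to 0.491 in the cytosol and 0.430 to 0.492 in the membrane fraction. For how many genes all libraries separate in this way was not counted.

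Outside the nucleus Neat1 had its highest mean at 120 min. In total RNA its ratios were 0.773, 1.19 and 0.860 at 30 min, 1.33, 1.50 and 1.35 at 60 min, 2.06, 2.40 and 1.86 at 120 min, and 1.26, 1.10 and 1.19 at 240 min. The 120 min libraries stood above all others without overlap. The cytosol followed the same course, from 0.622, 0.568 and 0.551 at 30 min through 2.21, 2.15 and 1.80 at 120 min to 1.50, 0.916 and 0.964 at 240 min.

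The comparisons of single times for Neat1 were chosen after its values were seen. From 30 to 120 min its ratio rose by 1.82 ± 0.19 on the log2 scale in the cytosol (limma adjusted p = 5.03e-05), by 1.18 ± 0.18 in total RNA (limma adjusted p = 0.00041) and by 0.96 ± 0.15 in the membrane fraction (limma adjusted p = 0.000533). Of all genes tested, 1.44% were higher at 120 than at 30 min in the cytosol, 0.94% in total RNA and 2.37% in the membrane fraction. From 120 to 240 min Neat1 then fell by 0.82 ± 0.18 (total), by 1.00 ± 0.26 (nucleus), by 0.90 ± 0.19 (cytosol) and by 0.76 ± 0.15 (membrane) (limma adjusted p = 0.00464, 0.0125, 0.00262 and 0.00256), where 29.2%, 34.3%, 47.9% and 37.6% of genes did. Those later falls were lost without replicate 2 or 3 in total RNA (highest adjusted p = 0.0672) and the nucleus (0.123), and without replicate 2 in the cytosol (0.0595). In the cytosol and membrane fraction they were also lost when libraries were centred on their median gene, at adjusted p = 0.127 and 0.0888.

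In the nucleus Neat1 ranged from 0.754 to 0.870 at 60 and 120 min and from 0.354 to 0.453 at 240 min. Its nuclear slope was -0.22 ± 0.09 log2 per h (limma adjusted p = 0.0453), a call lost without replicate 2 (0.343) or replicate 3 (0.226) and turned to 0.10 ± 0.09 by centring on the median gene (adjusted p = 0.34). Without the low 30 min library it was -0.30 ± 0.06 (limma adjusted p = 0.000436). Its slopes in the other fractions, 0.05 ± 0.10 for total, 0.18 ± 0.14 for cytosolic and -0.01 ± 0.09 for membrane RNA, did not pass the test, and a straight line describes this course poorly. At 240 min the cytosolic ratio was still 0.92 ± 0.19 log2 units above that at 30 min (limma adjusted p = 0.00136), where 3.17% of genes were higher.

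Meg3, the first gene of the Dlk1-Dio3 cluster, rose slightly outside the nucleus, while its nuclear slope was below 0 without passing the test. Its membrane ratios were 1.69, 1.52 and 1.45 at 30 min and 2.22, 2.29 and 2.08 at 240 min, which do not overlap. The nuclear ratios were 0.465, 1.21 and 1.04 at 30 min and 0.645, 0.593 and 0.548 at 240 min, where the library that stood apart makes the groups overlap. Meg3 rose by 0.16 ± 0.04 log2 per h in the cytosol (limma adjusted p = 0.00296), by 0.14 ± 0.04 in the membrane fraction (limma adjusted p = 0.00821) and by 0.11 ± 0.04 in total RNA (limma adjusted p = 0.0374).

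The calls of Meg3 were lost without some replicates. That in total RNA was lost without replicate 1, 2 or 3 (adjusted p = 0.0822, 0.108 and 0.192), that in the cytosol without replicate 1 (0.0601), and that in the membrane fraction without replicate 1 or 2 (0.0627 and 0.0954). The nuclear slope of Meg3 was -0.15 ± 0.07 (limma adjusted p = 0.0941), became -0.21 ± 0.05 and passed the test without the low 30 min library (adjusted p = 0.00289), and was 0.17 after centring on the median gene (adjusted p = 0.00643).

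Rian, the second gene of the cluster, had a slope past the threshold in the membrane fraction alone among the 4 fractions. Its cytosolic ratios ran from 0.612 to 1.05 over all times and its nuclear ratios from 0.660 to 1.62, with no slope past the threshold in total RNA, nucleus or cytosol (limma adjusted p = 0.506, 0.301 and 0.309). In the membrane fraction its ratios were 0.942, 1.01 and 1.00 at 30 min and 1.27, 1.303 and 1.47 at 240 min, without overlap. There Rian rose by 0.15 ± 0.03 log2 per h (limma adjusted p = 0.000675), where 4.09% of genes rose. The difference from the cytosolic slope did not pass the test (0.10 ± 0.05, limma adjusted p = 0.244). Neither did nucleus minus membrane (-0.23 ± 0.07, limma adjusted p = 0.0522). The membrane call was lost on the 30, 60 and 120 min libraries alone (adjusted p = 0.131). After centring on the median gene the total and cytosolic slopes also passed, and the nuclear slope was 0.24 (adjusted p = 0.000686).

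Mirg, the last gene of the cluster and the host of most of its microRNAs, went down. Its nuclear ratios were 0.308, 0.448 and 0.551 at 30 min, 0.282, 0.136 and 0.350 at 60 min, 0.216, 0.186 and 0.229 at 120 min, and 0.0179, 0.0803 and 0.0550 at 240 min. The 240 min libraries lay below all the others. Mirg fell in the nucleus by 0.89 ± 0.14 log2 per h (limma adjusted p = 0.000109), the second steepest nuclear slope of the 9 after Kcnq1ot1.

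In total RNA the ratios of Mirg were 1.07, 0.807 and 0.930 at 30 min, 0.102, 0.195 and 0.214 at 60 min and 0.547, 0.143 and 0.0743 at 240 min. The step from 30 to 60 min, -2.52 ± 0.62 on the log2 scale, did not pass the test (limma adjusted p = 0.0598), although the libraries do not overlap. The slope there was -0.42 ± 0.23 (limma adjusted p = 0.132), and -0.68 without replicate 1 (adjusted p = 0.0171). From 30 to 240 min Mirg fell by 2.37 ± 0.62 on the log2 scale in total RNA (limma adjusted p = 0.00676), a call lost without replicate 2 or 3 (highest adjusted p = 0.0769) and after centring (0.0588). Where it was listed, Mirg ranged from 0.300 to 0.903 in the cytosol and from 0.492 to 1.16 in the membrane fraction, and no test was made there. The 3 genes of 1 cluster thus had nuclear slopes of -0.15, -0.08 and -0.89 log2 per h in their order along the chromosome.

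H19 was too variable between replicates for its course to be drawn. Its total ratios were 0.209, 1.73 and 0.444 at 30 min and 1.17, 0.615 and 0.479 at 240 min, and its spread within groups (SD 1.01 on the log2 scale) exceeded that of 97.46% of genes. In the nucleus it went from 0.688, 0.722 and 0.296 at 30 min to 0.347, 0.155 and 0.456 at 240 min, which overlap. The nuclear slope of H19 was -0.29 ± 0.11 log2 per h (limma adjusted p = 0.0286), a call lost without replicate 1 (0.101) or replicate 2 (0.443), without the low 30 min library (0.0516) and after centring, where the slope was 0.025. Its cytosolic values ranged from 0.214 to 1.23 and its listed membrane values from 0.403 to 2.37.

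Kcnq1ot1 fell in all 4 fractions, with a slower fall in the cytosol than in the nucleus or the membrane fraction. Its total ratios were 1.14, 1.90 and 1.39 at 30 min, 0.835, 1.14 and 1.25 at 60 min, 0.406, 0.521 and 0.450 at 120 min, and 0.194, 0.169 and 0.202 at 240 min. The nuclear ratios went from 0.655, 2.15 and 1.49 at 30 min to 0.0962, 0.0902 and 0.113 at 240 min, and the membrane ratios from 1.81, 2.07 and 1.63 to 0.139, 0.165 and 0.190. In each of these the 240 min group lay far below the 30 min group without overlap.

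The cytosolic ratios of Kcnq1ot1 were 1.26, 1.91 and 1.44 at 30 min, 3.66, 3.22 and 3.69 at 60 min, 1.84, 1.69 and 1.61 at 120 min and 0.707, 0.715 and 0.779 at 240 min. All 3 libraries at 60 min were above every other. The step from 30 to 60 min, tested after the values were seen, was 1.22 ± 0.16 on the log2 scale (limma adjusted p = 0.0157), where 0.175% of genes were higher at 60 min, and the call was lost whichever replicate was left out (adjusted p from 0.226 to 0.237).

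Over all times Kcnq1ot1 fell by 1.10 ± 0.10 log2 per h in the nucleus (limma adjusted p = 1.07e-06), by 1.05 ± 0.09 in the membrane fraction (limma adjusted p = 3.86e-07), by 0.84 ± 0.06 in total RNA (limma adjusted p = 1.9e-07) and by 0.45 ± 0.12 in the cytosol (limma adjusted p = 0.00466). The cytosolic call was lost without replicate 2 (adjusted p = 0.0516), on the 30, 60 and 120 min libraries alone (0.926), and after centring (slope -0.17, adjusted p = 0.233). The other 3 slopes passed the test under every alternative tried. A single exponential gave half-lives of 58.9 ± 11.5 min for total, 54.3 ± 39.8 min for nuclear, 55.7 ± 10.0 min for membrane and 174 ± 21.9 min for cytosolic RNA (SD over 3 replicate series), the last from a course that rose from 30 to 60 min. The other mean ratios were also above 1 at 30 min: 1.48 for total, 1.43 for nuclear and 1.84 for membrane RNA. The fit left the level at 0 min free, so these half-lives describe the course after 30 min, not a decay from 0 min. A series joins the libraries of 1 replicate number over all times, and the labels do not say that a number marks 1 passage. The SD thus need not be an error between passages.

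Tug1 fell in all 4 fractions. Its total ratios were 0.484, 0.544 and 0.480 at 30 min, 0.244, 0.244 and 0.361 at 60 min, 0.0976, 0.150 and 0.213 at 120 min, and 0.0758, 0.0706 and 0.0916 at 240 min. At 240 min the ratios were 0.0752, 0.119 and 0.141 for nuclear, 0.0552, 0.105 and 0.119 for cytosolic and 0.0677, 0.0587 and 0.0740 for membrane RNA. No value at 240 min overlapped a value at 30 min in any fraction.

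Its slopes were -0.72 ± 0.10 log2 per h for total, -0.58 ± 0.09 for nuclear, -0.79 ± 0.08 for cytosolic and -0.86 ± 0.06 for membrane RNA (limma adjusted p = 2.75e-05, 6.84e-05, 1.13e-06 and 1.16e-07), and all 4 passed the test under every alternative tried. A single exponential gave Tug1 half-lives of 52.7 ± 24.9 min for total, 84.4 ± 24.7 min for nuclear, 69.4 ± 14.6 min for cytosolic and 51.9 ± 0.865 min for membrane RNA (SD over 3 replicate series). The level at 0 min was free here too, so these half-lives describe the course after 30 min, not a decay from 0 min. At 30 min the mean ratios of Tug1 were already 0.503 for total, 0.516 for nuclear, 0.647 for cytosolic and 0.606 for membrane RNA. The SD has the limit given for Kcnq1ot1. The means in total RNA at 30, 60 and 120 min were lower than those of all 3 fractions. Each fraction is scaled apart, so such a gap need not be a gap in amount.

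Miat went down and up again in total RNA, and ended above its start outside the nucleus. Its total ratios were 1.23, 2.26 and 2.90 at 30 min, 1.44, 1.23 and 0.602 at 60 min, 0.968, 0.920 and 0.909 at 120 min, and 3.16, 2.31 and 2.92 at 240 min. The membrane ratios went from 1.67, 1.97 and 1.77 at 30 min to 3.26, 4.68 and 2.98 at 240 min, and the cytosolic ones from 0.401, 1.46 and 2.03 to 2.36, 3.30 and 2.08. The 240 min groups of cytosol and membrane lay above all earlier ones, while the nuclear ratios stayed between 0.446 and 0.949.

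Miat rose by 0.30 ± 0.06 log2 per h in the membrane fraction (limma adjusted p = 0.00096) and by 0.39 ± 0.16 in the cytosol (limma adjusted p = 0.0446). The cytosolic call was lost without replicate 1 (adjusted p = 0.285) or replicate 2 (0.111), and its sign turned on the 30, 60 and 120 min libraries alone (slope -0.41). Between 120 and 240 min, a step chosen after the values were seen, Miat rose by 1.57 ± 0.37 on the log2 scale in total RNA and by 1.89 ± 0.51 in the cytosol (limma adjusted p = 0.00757 and 0.0113), where 5.92% and 2.78% of genes rose. Both calls were lost without replicate 2 (adjusted p = 0.0832 and 0.156). Before that, from 30 to 120 min, Miat fell by 1.11 ± 0.37 in total RNA (limma adjusted p = 0.0277), where 52% of genes fell, a call lost without replicate 2 or 3 (0.184 and 0.108) and after centring (0.349). At 240 min its total ratio did not differ past the threshold from that at 30 min (0.47 ± 0.37, limma adjusted p = 0.294). Its nuclear slope was -0.06 ± 0.08 (limma adjusted p = 0.56).

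**Figure D2:**
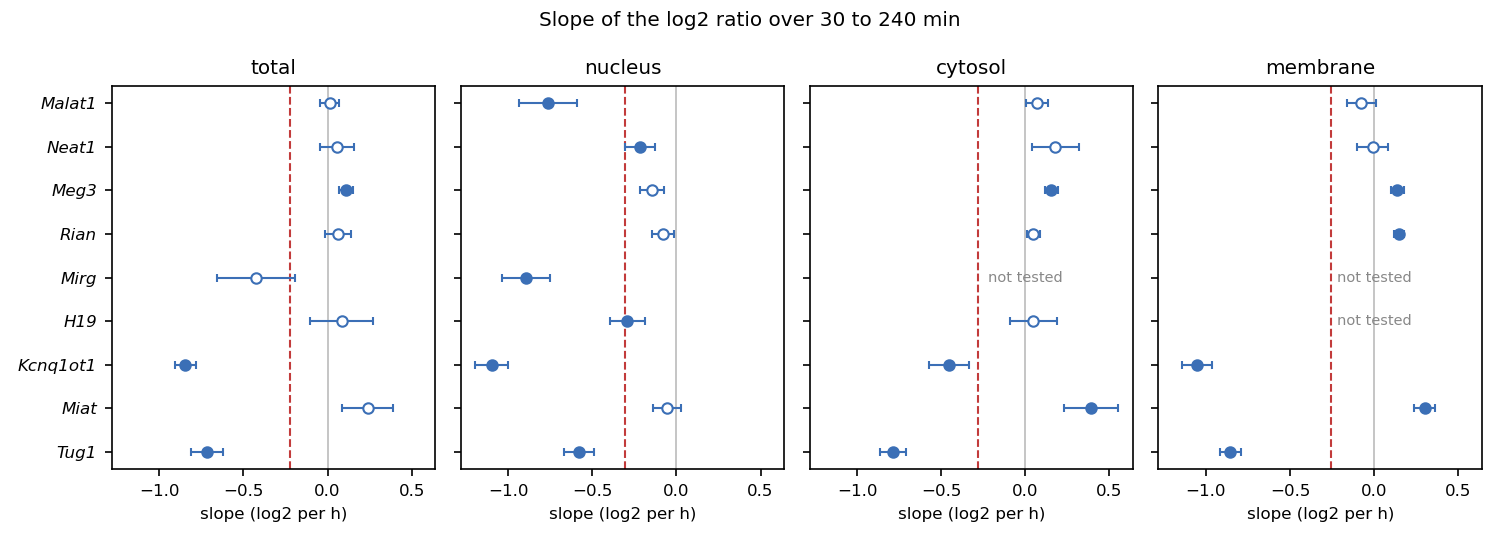
Slope of the log2 ratio to 0 min (log2 per h) of each RNA in each fraction, with its SE as bars; filled points passed the test at adjusted p under 0.05, and the dashed red line is the median slope of all genes tested in the fraction. Kcnq1ot1 and Tug1 lie left of that line in all 4 panels, Malat1 in the nuclear panel only, and Miat reaches 0.39 in the cytosol.

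The rank of a slope among all genes restates that slope and is no further test. The slope of Miat exceeded that of 99.4% of genes in the cytosol and of 98.3% in membrane, and that of Meg3 exceeded 96.2% and 94.2%. Neat1 exceeded 96.9% of genes in the cytosol and 60.1% in the nucleus. Malat1 exceeded 92.6% of genes in the cytosol but 13.7% in the nucleus, and Kcnq1ot1 exceeded 4.1% of genes in the nucleus but 30.4% in the cytosol.

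Whether the course differed between fractions was tested as the difference in slope in 1 limma fit over both fractions. These 3 comparisons share libraries, since each fraction enters 2 of them. Between nucleus and cytosol the slope was lower in the nucleus for 3 of 8 members, Malat1, Kcnq1ot1 and Meg3, and higher for 0 (0 also at an unadjusted limma p under 0.05), where 8.3% of 11232 genes were lower and 12.3% higher. The differences were -0.83 ± 0.19 log2 per h for Malat1 (limma adjusted p = 0.00363), -0.64 ± 0.16 for Kcnq1ot1 (limma adjusted p = 0.0065) and -0.30 ± 0.08 for Meg3 (limma adjusted p = 0.0127). Tug1 gave 0.21 ± 0.11 (limma adjusted p = 0.203), and Neat1 and Miat gave -0.40 ± 0.17 and -0.45 ± 0.18 (limma adjusted p = 0.0962 and 0.086). Without the low nuclear library Neat1 passed too (-0.48 ± 0.16, limma adjusted p = 0.0326). A median of -0.37 over the 8 members stood beside 0.03 over all genes.

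Between nucleus and membrane the slope was lower in the nucleus for 3 of 7 members, Malat1, Miat and Meg3, where 6.16% of genes were lower and 2.19% higher; 0 members were higher in the nucleus, and 1 (Tug1) at an unadjusted limma p under 0.05. The differences were -0.69 ± 0.20 for Malat1, -0.36 ± 0.10 for Miat and -0.28 ± 0.08 for Meg3 (limma adjusted p = 0.0324, 0.0269 and 0.0308). Kcnq1ot1, with -0.05 ± 0.14, was not among them (limma adjusted p = 0.878). Without the low nuclear library Rian passed too (-0.25 ± 0.07, limma adjusted p = 0.036). Between membrane and cytosol 1 of 7 members differed, Kcnq1ot1 with -0.60 ± 0.15 (limma adjusted p = 0.0177), where 1.76% of genes were lower in the membrane fraction and 4.94% higher. All 7 differences kept their sign without each replicate, but each was lost without at least 1 of them, and those between nucleus and membrane for Malat1 and Miat and between membrane and cytosol for Kcnq1ot1 were lost with every one left out in turn (adjusted p from 0.105 to 0.158). With a pseudocount of 1 added to the ratio, the differences of Malat1 and Kcnq1ot1 between nucleus and cytosol, of Malat1 between nucleus and membrane and of Kcnq1ot1 between membrane and cytosol were also lost (limma adjusted p = 0.078, 0.74, 0.53 and 0.585). A pseudocount of 0.1 lost the last 3 of these (limma adjusted p = 0.0652, 0.139 and 0.0781).

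By the study's methods the fractions of a replicate were made from the same cells, which these fits do not use; libraries of 1 time and replicate number were taken as 1 culture. With each such culture as a block, added after the values were seen, the slope was lower in the nucleus than in the cytosol for 5 of 8 members, where 9.46% of genes were lower and 14.3% higher. Neat1 (-0.40 ± 0.10) and Miat (-0.45 ± 0.12) passed beside Malat1, Kcnq1ot1 and Meg3 (limma adjusted p = 0.013 and 0.0212 for the first pair). Between nucleus and membrane the block left 2 of 7, Miat and Rian (-0.23 ± 0.06, limma adjusted p = 0.0475), where 6.24% of genes were lower; Malat1 and Meg3 were lost there, at limma adjusted p = 0.0839 and 0.0596. With the replicate number alone as a block they were lost as well (limma adjusted p = 0.0631 and 0.0556). Kcnq1ot1 kept its call between membrane and cytosol with both blocks.

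**Figure D3:**
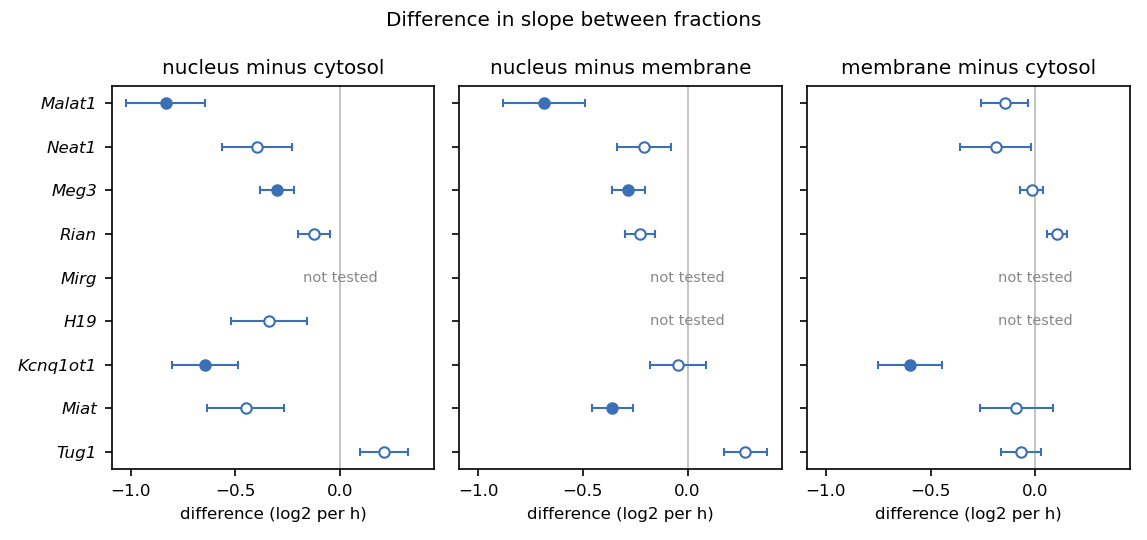
Difference in slope (log2 per h) between pairs of fractions for each RNA, with SE bars; filled points passed the test at adjusted p under 0.05. Malat1 lies at -0.83 and -0.69 in the left and middle panels, and Kcnq1ot1 is the filled point of the right panel.

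**Figure D4:**
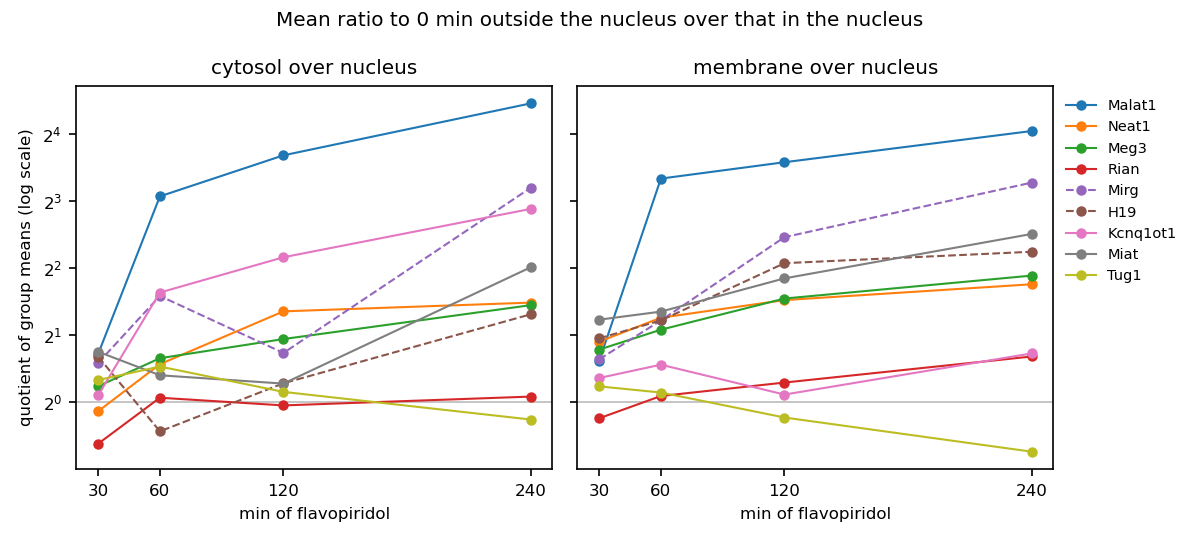
Mean ratio to 0 min in cytosol (left) or membrane fraction (right) divided by that in the nucleus (log scale) against minutes of flavopiridol; dashed lines mark Mirg and H19, which were not listed in all libraries of these fractions. Malat1 runs from 1.64 to 21.9 on the left, Kcnq1ot1 from 1.07 to 7.35, and Tug1 ends below 1 in both panels.

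The quotient of mean ratios shows the balance at single times. At 240 min the cytosolic mean was 9.14 times the nuclear one for Mirg, from 2 listed cytosolic libraries, 7.35 times for Kcnq1ot1, 4.02 times for Miat, 2.79 times for Neat1 and 2.72 times for Meg3. For Rian it was 1.06 times and for Tug1 0.835 times, with overlapping libraries in both. Because each fraction is set to 1 at 0 min and scaled apart, the quotient is a change since 0 min on that scale. It is not a quotient of amounts. The median ratio over the genes of a library at 240 min was 0.313 to 0.356 in the nucleus and 0.476 to 0.491 in the cytosol. A cytosolic ratio above the nuclear one was therefore not particular to the members. The total mean lay between the lowest and highest fraction mean in 29 of 36 combinations of member and time; the others were Tug1 at 30, 60 and 120 min, Mirg at 30 and 60 min, Kcnq1ot1 at 60 min and Miat at 30 min.

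The genes with the closest courses were found by Pearson correlation of 16 group means of the log2 ratio over 8602 named genes listed in all libraries. These points share libraries and are a description with no test. Malat1 was followed most closely by Hdac3 (r = 0.978), a histone deacetylase, then by Stk25 and Rundc3a (0.972 each). Tug1 had Sync (0.985), Abhd6 (0.985) and Fem1a (0.985), and Kcnq1ot1 had Daglb (0.965), Slc46a1 (0.957) and Sun1 (0.956), an inner nuclear membrane protein. Meg3 had Dennd6b (0.965), Ganab (0.963), a subunit of glucosidase II of the endoplasmic reticulum, and Metap1d (0.947). Miat had Man2b2 (0.936), Ctsz (0.926), both of the lysosome, and Adgrf5 (0.926). The closest courses were less close for Neat1, with Cfp (0.836), Il18bp (0.829) and Rpl23a (0.828), and for Rian, with Dpp4 (0.821), Dynlt3 (0.795) and Ppt1 (0.794).

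Other annotated long noncoding genes were counted with the members left out. In the nucleus 1013 of 1708 fell and 43 rose, which is 59.3% and 2.52% beside 61.9% and 3.32% of all genes, with a median slope of -0.35 log2 per h beside -0.30 over all genes. Between nucleus and cytosol 135 of 1287 had the lower slope in the nucleus and 80 the higher one, 10.5% and 6.22% beside 8.3% and 12.3% of all genes. Of a list of 37 known long noncoding RNAs, 25 could be tested in the nucleus, where 19 fell and 1 rose, the p53 target Trp53cor1 (0.58 ± 0.11 log2 per h, limma adjusted p = 0.000514). Its steepest falls there were Nespas (-1.46 ± 0.21), antisense to the imprinted Gnas locus, and the microRNA hosts Mir17hg (-1.22 ± 0.17) and Mir22hg (-1.05 ± 0.13), with limma adjusted p = 4.55e-05, 4.37e-05 and 1.83e-05.

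The protein partners and neighbours of the members were counted in the same fits, where 61.9% of all genes fell in the nucleus and 3.32% rose. Of 16 protein-coding genes of the imprinted domains, 7 could be tested in the nucleus and 5 fell, most steeply Nap1l4 (-1.32 ± 0.15), Rtl1 (-1.10 ± 0.09) and Dio3 (-0.90 ± 0.10), with limma adjusted p = 6.6e-06, 3.93e-07 and 6.51e-06. Rtl1 and Dio3 are paternally expressed genes of the domain that holds Meg3, Rian and Mirg. Dlk1 and Kcnq1 were not listed. Of the mRNAs of paraspeckle proteins, 8 of 16 fell in the nucleus and 1 rose, the core protein Nono (0.11 ± 0.04, limma adjusted p = 0.0251). The steepest falls were those of the RNA-binding proteins Ewsr1 (-1.03 ± 0.14), Hnrnpk (-0.93 ± 0.26) and Hnrnph3 (-0.88 ± 0.20), with limma adjusted p = 2.33e-05, 0.00641 and 0.00148. Of the mRNAs of nuclear speckle proteins 10 of 11 fell, with Pnisr (-2.16 ± 0.21), Luc7l3 (-0.75 ± 0.05) and the scaffold Srrm2 (-0.61 ± 0.22) in front (limma adjusted p = 1.86e-06, 1.46e-07 and 0.0281). Their median nuclear slopes were -0.62 for the imprinted domains, -0.23 for paraspeckles and -0.35 for speckles.

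Of the pluripotency markers 9 of 12 fell in the nucleus, where 61.9% of all genes did, led by Fgf4 (-1.47 ± 0.19), Klf2 (-1.35 ± 0.10) and Sox2 (-1.22 ± 0.11), with limma adjusted p = 1.82e-05, 3.62e-07 and 1.28e-06, and the median slope was -0.74 log2 per h. All 3 differentiated lineage markers tested there fell (Eomes -0.82 ± 0.09, Mixl1 -0.57 ± 0.17 and Krt7 -0.32 ± 0.11, limma adjusted p = 6.46e-06, 0.00853 and 0.0221), as did 1 of 2 feeder markers, Col1a1 (-0.55 ± 0.14, limma adjusted p = 0.00332).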

How the data were processed

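E14TG2a cells were treated with 1 µM flavopiridol, and poly(A) RNA of 48 libraries was sequenced in pairs of reads. The submitters' processing notes name STAR 2.7.6, RSEM 1.3.3 and mm10. The authors scaled each library on long-lived genes and divided by the 0 min level of the fraction; the deposited value is this ratio per gene, so a rise or fall is relative to those long-lived genes. The last time is 240 min in the titles and 180 in a protocol; 240 was used. Between 15067 and 19501 genes were listed per library, and 23786 of 23862 identifiers matched a symbol. Depth is unknown.

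The ratios were tested on the log2 scale with no pseudocount, in limma 3.58.1 (R 4.3.3) with a trended prior: the slope on time per fraction over genes listed in all 12 libraries, the difference in slope between fractions, and 240 against 30 min. Fitting was tested on simulated data. Half-lives came from a single exponential in Python 3.11.15. By the study's methods the fractions of 1 time and number come from the same cells; their 72 correlations of deviations ran from -0.10 to 0.25, and a block by culture was added after the values were seen. Across times the labels do not say that a number marks 1 passage, and the 72 correlations within a number and fraction ran from -0.06 to 0.19. The alternatives were other scalings, pseudocounts, filters, priors and times, a replicate block and left-out replicates. Named were all 9 members, the 3 closest courses, and up to 3 genes per list with the steepest nuclear slope past the threshold; others were named after their values were seen. Members and lists were chosen with earlier results of these data known. Replicates were passaged separately.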

Additional observations from a re-analysis of the deposited data

Results flagged for a closer look

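The results given a closer look here are differences between fractions in the course of an RNA under the same treatment, tested as a difference in slope. In Malat1 the slope differed by -0.83 log2 per h as nucleus minus cytosol and by -0.69 as nucleus minus membrane. The nuclear library of replicate 1 at 30 min, whose median ratio was low, enters both differences. Without it they were larger in size, -0.86 and -0.71, both still past the threshold.

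In Kcnq1ot1 the slope differed by -0.64 as nucleus minus cytosol and by -0.60 as membrane minus cytosol, and its cytosolic ratio had its highest values at 60 min. In Meg3 the slope differed by -0.30 as nucleus minus cytosol and by -0.28 as nucleus minus membrane. In Miat it differed by -0.36 as nucleus minus membrane. Groups of 3 libraries were too small for a test of single outlying libraries.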

How the results depend on the processing

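Kcnq1ot1 in all fractions but the cytosol, Tug1 in all 4 fractions and Malat1 in the nucleus kept the direction and the call of their slope under every alternative. The cause of each change was not tested, beyond what follows from raising the median gene to 0. With libraries centred on the median gene, where 28.3% to 29.6% of genes rose and 29.2% to 32.4% fell in each fraction, 4 members rose in total, 3 in nuclear and 5 in cytosolic RNA, and 1 fell in the cytosol. Then 1 had a higher slope in nucleus than membrane (12.1% of genes), and at 240 against 30 min 5 were higher in total, 4 in nuclear, 5 in cytosolic and 5 in membrane RNA (28.7% to 30.2% of genes), with 1 lower in the cytosol (32.8%). With libraries scaled to the same sum the counts were 4, 1 and 5 risen (20.1%, 17.1% and 21.5% of genes), 1 fallen in the cytosol (38.9%) and 1 higher in nucleus than membrane (6.86%).

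Centring turned the nuclear slopes of H19 to 0.025, Meg3 to 0.17, Neat1 to 0.10, Rian to 0.24 and Miat to 0.26 log2 per h, and the membrane slopes of Neat1 to 0.25 and Malat1 to 0.18. Equal sums turned those of Meg3, Rian and Miat in the nucleus to 0.055, 0.12 and 0.14 and those of Neat1 and Malat1 in the membrane fraction to 0.17 and 0.10. On 30, 60 and 120 min alone, slopes turned to -0.36, -0.072 and -0.65 for H19, Rian and Miat in total RNA, 0.24 for Neat1 in the nucleus, -0.62 and -0.41 for H19 and Miat in the cytosol, and 0.59 and 0.11 for Neat1 and Malat1 in the membrane fraction. Then 3 members fell in the nucleus, 1 fell and 1 rose in the cytosol, 1 rose in the membrane fraction, and 1 had the lower slope in nucleus than membrane. With 180 min as the last time, H19 in the cytosol gave -0.0081, Neat1 in the membrane fraction 0.053, and 1 member rose in the cytosol, as with genes listed in at least 2 of 3 libraries at each time.

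A pseudocount of 1 left 1 member with the lower slope in nucleus than cytosol (Meg3), and pseudocounts of 0.1 and 1 left 0 between membrane and cytosol. With a replicate block on the number alone, 1 member (Miat) instead of 3 had the lower slope in nucleus than membrane (4.4% of genes, 6.16% without the block). With a block by culture, 5 instead of 3 had the lower slope in nucleus than cytosol (9.46% of genes, 8.3% without the block). The blocks changed no other count of members by over 1.5 times. Leaving out 1 replicate gave 0 to 0 risen in total RNA, 1 to 2 fallen and 0 to 2 risen in the cytosol, 1 to 2 and 0 to 2 with the lower slope in nucleus than cytosol and than membrane, 0 to 0 in membrane than cytosol, and at 240 against 30 min 0 to 1 higher in total RNA and 4 to 7 lower in the nucleus. It turned the slopes of H19 and Malat1 in total RNA (-0.19 to 0.32 and -0.039 to 0.0705) and of Neat1 in the membrane fraction (-0.033 to 0.016). For left-out replicates, pseudocounts, other times and the filter on listing, the shares of all genes are not given here. Those counts of members therefore cannot be set against all genes. Without depth, scarce RNAs such as Mirg and H19 cannot be told from variable ones.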
